A study of Mus musculus with 44 samples.

Results

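The genes described here are 47 members of the type I interferon response, followed in microglia of mice that model amyloid disease and differ in their alleles of Trem2. Members were the rows of the deposited tables whose gene name equalled a name on a fixed list: 46 of the 47 names were found among 37583 genes in each table, and Ifi27 was not analysed here. All 46 passed the filter on low values in females, and 44 did in males, where Oas2 and Ifi203 were too low to test. Microglia, the resident macrophages of the brain, had been sorted by FACS on CD11b and CD45 from brains of 8-month-old mice, and their poly(A) RNA was sequenced. The 44 libraries fall into 7 groups. The female table held 5 NonTg libraries (Trem2+/+, without the transgene), 6 libraries of 5xFAD Trem2+/+, 9 of 5xFAD T96K/+ and 7 of 5xFAD T96K/T96K. The male table held 5 libraries of 5xFAD Trem2+/+, 6 of 5xFAD T96K/+ and 6 of 5xFAD T96K/T96K. Males without the transgene were not analysed here. 5xFAD mice express mutant human amyloid precursor protein and presenilin from a neuronal promoter and form amyloid plaques, so each T96K group and the Trem2+/+ group it was compared with carried the same transgenes. Trem2 is a lipid-sensing receptor of microglia, and the title of the series calls T96K a gain-of-function mutation that impairs them.

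Type I interferons bind a receptor made of Ifnar1 and Ifnar2, whose kinases phosphorylate Stat2, which acts with Irf9 in a complex that binds the interferon-stimulated response element in target promoters. The targets include sensors of foreign nucleic acid, proteins that block viral RNA or viral particles, and brakes such as Usp18 that close the loop. In the brain, microglia with high levels of such genes are a known minority state around amyloid plaques and in ageing.

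Depth ran from 5.89 to 42.4 M reads in genes, 10 libraries being deep (26.5 to 42.4 M) and 34 shallow (5.89 to 16 M), and of the NonTg libraries those numbered 28 and 30 were deep. The library labelled female T96K/+ 22 went against its sex label: it held 0.416 RPKM of the female transcript Xist and 14.4 RPKM of the Y-linked gene Ddx3y, against 16.9 to 146.6 RPKM and at most 0.0893 RPKM in the other 26 female libraries. The summed RPKM of 12 microglia markers ranged from 3310 to 10400 in NonTg and from 3550 to 13100 in the female 5xFAD groups, so microglia markers were present in every group. The summed RPKM of 9 endothelial markers was 1790 to 3820 in NonTg, 559 to 1510 in female Trem2+/+, 574 to 2360 in T96K/+ and 1040 to 3300 in T96K/T96K, so NonTg and Trem2+/+ did not overlap in it. In such bulk libraries fewer cells of a type and less RNA per cell cannot be told apart. Each library number was read as 1 mouse, which the labels do not state outright, and p-values therefore measure spread between libraries. RPKM, reads per kilobase of gene scaled to library size, was tested as log2(RPKM + 1) with limma, and a gene was called when its Benjamini-Hochberg adjusted p over all genes of the table was under 0.05. Differences below are on that log2(RPKM + 1) scale, which understates changes of genes with low values.

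The first question was how these genes differed between each female 5xFAD group and NonTg. The T96K groups differed from NonTg in both the transgenes and the Trem2 allele. No NonTg group carried T96K, so transgenes and allele cannot be told apart in those comparisons. Part of the response was higher in 5xFAD, and no member was called lower on the deposited scaling with all libraries. Of 46 members, 20 were called higher in Trem2+/+, where 13.5% of all genes tested were called higher and 10% lower. In T96K/+ 20 members were called higher, against 10.3% of all genes called higher and 7.07% lower. In T96K/T96K 23 were called higher, against 10.3% and 5.05%. The median member difference was 0.49, 0.55 and 0.62 in the same order, beside medians over all genes of 0.04, 0.03 and 0.03. Without the library labelled T96K/+ 22 the counts were 20, 20 and 22. These 3 comparisons share the NonTg libraries, so the 19 members called in all 3 of them are no independent repeats; 4 further members were called in 1 comparison and Stat2 in 2, and 22 in none.

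Calls by role stand beside 13.5%, 10.3% and 10.3% of all genes called higher in Trem2+/+, T96K/+ and T96K/T96K. Among RNA-directed effectors 8, 8 and 9 of 16 were called higher in Trem2+/+, T96K/+ and T96K/T96K, and among sensors 4, 3 and 3 of 6. The membrane and virion-directed effectors gave 3 of 6 in each comparison and the feedback and ISG15 system genes 3, 3 and 4 of 7. The transcription factors gave 0, 1 and 1 of 5, and the receptor chains 1 of 2 each time. Mitochondrial or other effectors gave 1, 1 and 2 of 4. Each member was placed in a single role, and some placements are loose. Cmpk2 was counted with the RNA-directed effectors, Samd9l with the membrane and virion-directed effectors and Rtp4 with the feedback and ISG15 system genes. None of them was called.

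**Figure D1:**
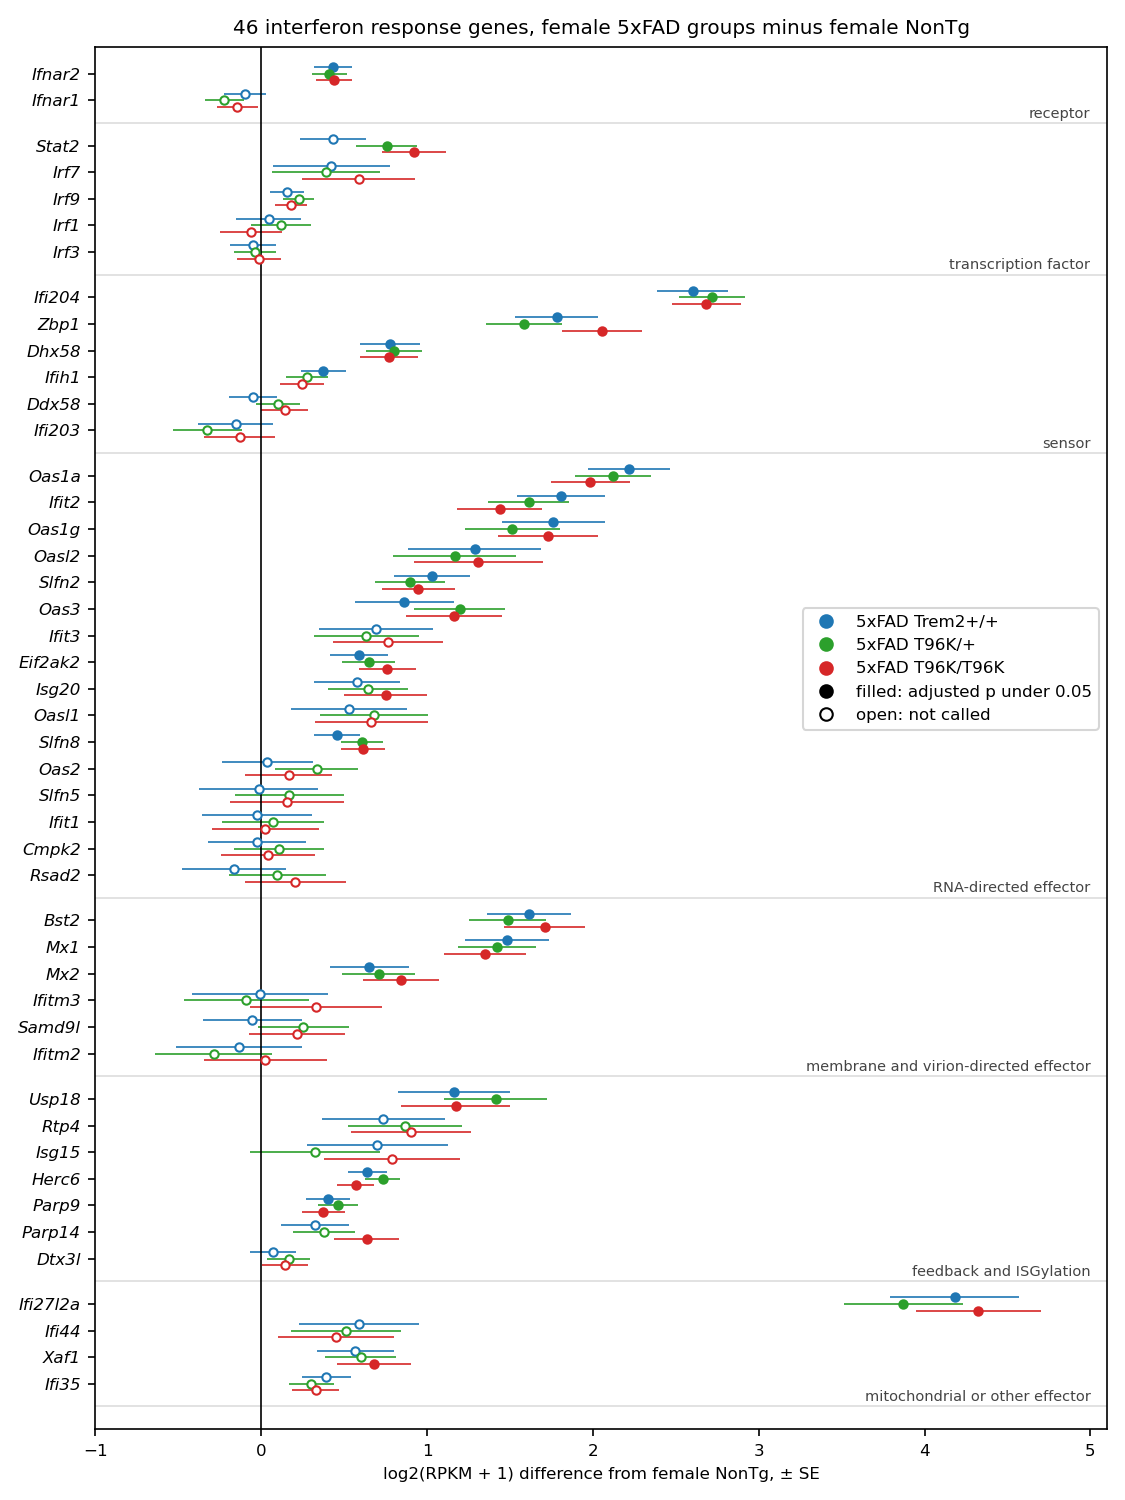
Difference of 46 interferon response genes between each female 5xFAD group and female NonTg, on the log2(RPKM + 1) scale with SE, grouped by role; filled points had an adjusted p under 0.05 (limma). Ifi27l2a lies farthest right at 3.87 to 4.32, Ifi204, Oas1a, Zbp1, Ifit2, Oas1g and Bst2 follow, and Ifit1, Ifitm3, Ddx58, Rsad2 and Ifnar1 sit near 0 with open points.

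The receptor chains moved unequally. Ifnar1, the chain that recruits the kinase Tyk2, stood at 49.6, 33.4, 38.2, 37.6 and 36.0 RPKM in NonTg libraries 4, 10, 24, 28 and 30. It ranged over 29.8 to 44.04 (median 35.04) in female Trem2+/+, 25.9 to 38.4 (median 32.7) in T96K/+ and 28.1 to 41.8 (median 35.1) in T96K/T96K. Male values were 28.4, 31.6, 27.9, 34.8 and 27.3 in Trem2+/+ libraries 1, 2, 7, 13 and 21, 24.1 to 33.2 (median 29.97) in T96K/+ and 24.1 to 31.4 (median 29.1) in T96K/T96K. All groups of Ifnar1 overlapped, and its differences from NonTg were -0.10, -0.22 and -0.14 (adjusted p 0.628, 0.211 and 0.458); under quantile normalization it was called lower in T96K/+. Ifnar2, the chain that Usp18 binds, was at 62.7, 50.5, 45.8, 63.6 and 56.2 RPKM in the NonTg libraries. In the female 5xFAD groups Ifnar2 covered 64.9 to 89.7 (median 72.4), 61.4 to 83.8 (median 76.5) and 68.4 to 90.9 (median 73.3). Only T96K/+ overlapped NonTg, through library 22 alone, the library that went against its sex label. The next lowest T96K/+ library was at 68.3 RPKM. Ifnar2 was called higher by 0.43, 0.41 and 0.44 (adjusted p 0.00628, 0.00701 and 0.00647), a rise whose call was lost under quantile normalization in all 3 comparisons.

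Of the transcription factors only Stat2 was called in females, where both T96K groups passed the threshold against NonTg and Trem2+/+ did not. Stat2 was at 14.98, 16.3, 12.6, 14.1 and 12.6 RPKM in NonTg. It covered 12.7 to 29.1 (median 19.04) in Trem2+/+, 16.7 to 32.1 (median 26.8) in T96K/+ and 21.2 to 39.3 (median 27.1) in T96K/T96K. Both T96K groups lay wholly above NonTg, whereas Trem2+/+ overlapped it. Stat2 differed from NonTg by 0.43 (SE 0.20, adjusted p = 0.117), 0.76 (SE 0.18, adjusted p = 0.00491) and 0.92 (SE 0.19, adjusted p = 0.00132). Without Trem2+/+ library 1 it was called there too, at 0.55 (adjusted p = 0.0487). Irf7, the factor that amplifies interferon production, was at 21.2, 8.66, 32.8, 9.88 and 10.8 RPKM in NonTg, with libraries 4 and 24 highest. It reached 10.8 to 28.3 (median 21.97), 6.01 to 35.2 (median 25.4) and 15.9 to 29.1 (median 25.3) in the female 5xFAD groups. The highest NonTg library exceeded all Trem2+/+ and T96K/T96K libraries, and the differences of 0.42, 0.39 and 0.59 were not called (adjusted p 0.426, 0.475 and 0.258). Male Irf7 was 17.9, 17.2, 14.3, 18.3 and 16.3 in Trem2+/+, 12.6 to 18.4 (median 17.5) in T96K/+ and 12.8 to 17.5 (median 14.1) in T96K/T96K. Irf9, the DNA-binding partner of Stat2, differed by 0.15, 0.23 and 0.18, and Irf1 and Irf3 by -0.05 to 0.12, none of them called.

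The largest rises among the sensors were those of Ifi204 and Zbp1. Ifi204, a sensor of DNA from the PYHIN family, stood at 1.07, 1.21, 1.38, 2.53 and 3.396 RPKM in NonTg. It reached 12.02 to 23.5 (median 15.7) in Trem2+/+, 12.9 to 32.3 (median 15.5) in T96K/+ and 12.1 to 19.2 (median 18.6) in T96K/T96K. Every female 5xFAD library was above every NonTg library, and the differences were 2.60 (SE 0.21, adjusted p = 7.41e-09), 2.72 (SE 0.20, adjusted p = 7.36e-10) and 2.68 (SE 0.21, adjusted p = 3.09e-09). Male Ifi204 was 15.7, 12.6, 10.3, 14.02 and 12.5 in Trem2+/+, 7.68 to 11.95 (median 10.4) in T96K/+ and 6.94 to 14.6 (median 10.6) in T96K/T96K. Zbp1, which senses Z-form nucleic acid and can start necroptosis, stood at 0.809, 0.925, 1.39, 1.12 and 1.58 RPKM in NonTg. In the 5xFAD females Zbp1 covered 3.51 to 10.04 (median 6.88), 2.9 to 8.71 (median 6.09) and 4.97 to 9.297 (median 8.45), again with no overlap. The Zbp1 differences were 1.78 (SE 0.25, adjusted p = 1.13e-05), 1.59 (SE 0.23, adjusted p = 2.02e-05) and 2.05 (SE 0.24, adjusted p = 1.07e-06).

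The cytosolic RNA sensors gave smaller values. Ddx58, which encodes RIG-I, was at 10.2, 7.08, 9.35, 6.999 and 5.57 RPKM in NonTg. It covered 5.86 to 8.61 (median 7.63), 5.17 to 10.5 (median 9.07) and 7.62 to 10.1 (median 8.09) in the female 5xFAD groups and overlapped NonTg in each. Its differences of -0.05, 0.10 and 0.14 were not called (adjusted p 0.841, 0.679 and 0.529). Male Ddx58 was 7.39, 7.195, 6.31, 7.94 and 7.43 in Trem2+/+, 5.14 to 7.098 (median 6.08) in T96K/+ and 5.803 to 7.48 (median 6.36) in T96K/T96K. Dhx58, which encodes the related regulator LGP2, stood at 5.12, 3.54, 4.195, 5.06 and 4.76 RPKM in NonTg and at 6.06 to 13.7 (median 8.15), 6.25 to 12.4 (median 9.02) and 6.03 to 9.997 (median 8.41) in 5xFAD. No group of Dhx58 overlapped NonTg, and the rises were 0.77, 0.80 and 0.77 (adjusted p 0.00286, 0.00136 and 0.00309). Ifih1, which encodes MDA5, was called in Trem2+/+ only at 0.38 (SE 0.14, adjusted p = 0.0463), a call lost on leaving out any of 14 single libraries (0.33 to 0.42 without them, adjusted p 0.0503 to 0.111). It stood at 0.28 and 0.24 in the T96K groups, which were not called against Trem2+/+. Ifi203, a PYHIN gene whose reads may be shared with Ifi204, was low at 1.48, 1.78, 1.79, 0.28 and 0.691 RPKM in NonTg and differed by -0.16, -0.32 and -0.13, not called; with shallow libraries alone it was called lower in each.

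The RNA-directed effectors ranged from Oas1a, with the largest rises of this role, to genes near 0. Oas1a and Oas1g are oligoadenylate synthetases, which on double-stranded RNA make the messenger that switches on RNase L. Oas1a stood at 4.59, 2.93, 6.41, 5.97 and 6.15 RPKM in NonTg. It reached 15.99 to 38.5 (median 28.8) in Trem2+/+, 12.9 to 34.4 (median 30.01) in T96K/+ and 14.5 to 32.5 (median 25.2) in T96K/T96K. The lowest 5xFAD library was above the highest NonTg library, and the differences were 2.22 (SE 0.25, adjusted p = 3.99e-07), 2.12 (SE 0.23, adjusted p = 2.30e-07) and 1.98 (SE 0.24, adjusted p = 1.71e-06). Oas1g was lower throughout, at 0.286, 0.518, 0.393, 0.213 and 0.868 RPKM in NonTg. It covered 1.803 to 6.49 (median 3.61), 1.097 to 6.12 (median 3.55) and 2.32 to 6.99 (median 3.38) in 5xFAD, above NonTg without overlap. The Oas1g differences were 1.76 (SE 0.31, adjusted p = 1.87e-04), 1.51 (SE 0.29, adjusted p = 5.05e-04) and 1.73 (SE 0.30, adjusted p = 2.01e-04). The pair are near copies, so the authors' counting could have split or dropped shared reads between them.

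The Ifit genes, of which Ifit1 binds RNA that lacks the marks of a host cap, lie close together on chromosome 19 and did not move alike. Ifit2, at chr19:34625184-34650909 of mm9, stood at 6.69, 2.22, 6.33, 4.35 and 5.42 RPKM in NonTg. It covered 12.9 to 27.9 (median 18.8), 10.2 to 23.6 (median 19.4) and 7.68 to 21.3 (median 15.2) in 5xFAD, all above NonTg. The Ifit2 differences were 1.81 (SE 0.26, adjusted p = 2.04e-05), 1.61 (SE 0.24, adjusted p = 3.42e-05) and 1.44 (SE 0.26, adjusted p = 2.55e-04). Ifit3, at chr19:34658021-34663221, stood at 29.6, 9.83, 38.5, 12.2 and 15.8 RPKM in NonTg, where libraries 4 and 24 lay within the 5xFAD range. It covered 16.3 to 45.6 (median 30.4), 13.01 to 51.6 (median 31.4) and 21.02 to 42.8 (median 33.97), and its differences of 0.69, 0.63 and 0.76 were not called (adjusted p 0.152, 0.183 and 0.12). With marker covariates Ifit3 was called in T96K/T96K at 1.10 (adjusted p = 0.0335). Male Ifit3 was 34.7, 25.7, 22.3, 30.1 and 29.6 in Trem2+/+, 16.6 to 30.5 (median 23.04) in T96K/+ and 18.02 to 24.2 (median 22.97) in T96K/T96K. Ifit1, at chr19:34715361-34724499 and singled out here after its values were seen, stood at 20.4, 8.81, 18.5, 7.23 and 7.44 RPKM in NonTg and at 6.08 to 16 (median 12.7), 5.198 to 18 (median 13.5) and 5.31 to 20.9 (median 12.3) in 5xFAD. Its groups overlapped, and the differences were -0.02, 0.07 and 0.03 with SE 0.33, 0.31 and 0.32. These were not called, but with marker covariates Ifit1 was called higher in Trem2+/+ and T96K/+. A test of Ifit2 against Ifit1 was not made.

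The starts of these genes are shown because they carry the letters through which the interferon complex is known to act. Promoters of 300 bases, 250 before and 50 after the start, were taken from RefSeq (GRCm38.p6); 35 members matched by symbol. The motif searched on both strands was GAAA, any 2 bases and GAAA again, the core of the interferon-stimulated response element; overlapping matches were counted, and capitals below mark them. Lower case is the rest of the window, 5′ to 3′ on the strand of the gene.
Ifit1, chr19:34640639-34640938, + strand: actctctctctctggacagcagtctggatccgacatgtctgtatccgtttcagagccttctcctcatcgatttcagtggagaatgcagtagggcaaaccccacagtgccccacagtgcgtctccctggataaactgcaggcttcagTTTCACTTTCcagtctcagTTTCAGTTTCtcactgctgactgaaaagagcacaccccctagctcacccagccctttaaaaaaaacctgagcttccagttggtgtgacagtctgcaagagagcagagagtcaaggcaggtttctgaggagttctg
Ifit2, chr19:34550444-34550743, + strand: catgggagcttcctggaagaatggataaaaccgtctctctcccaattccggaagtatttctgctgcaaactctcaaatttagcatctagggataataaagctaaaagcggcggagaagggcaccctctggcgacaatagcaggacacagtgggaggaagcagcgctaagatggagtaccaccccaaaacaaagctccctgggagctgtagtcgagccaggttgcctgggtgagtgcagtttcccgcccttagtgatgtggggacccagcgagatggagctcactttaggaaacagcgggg
Ifit3, chr19:34583279-34583578, + strand: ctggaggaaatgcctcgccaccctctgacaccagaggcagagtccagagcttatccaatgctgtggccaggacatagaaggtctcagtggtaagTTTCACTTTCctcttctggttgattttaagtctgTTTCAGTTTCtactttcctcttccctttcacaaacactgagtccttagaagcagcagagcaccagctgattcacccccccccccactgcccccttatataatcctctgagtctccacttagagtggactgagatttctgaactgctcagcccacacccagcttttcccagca
Oas1a, chr5:120907476-120907775, - strand: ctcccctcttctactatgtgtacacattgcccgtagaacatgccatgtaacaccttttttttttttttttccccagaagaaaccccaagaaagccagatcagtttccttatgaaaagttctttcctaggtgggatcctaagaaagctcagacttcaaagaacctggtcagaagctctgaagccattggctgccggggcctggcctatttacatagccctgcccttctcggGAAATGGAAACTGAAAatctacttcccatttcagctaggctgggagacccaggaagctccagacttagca
Oas1g, chr5:120887564-120887863, - strand: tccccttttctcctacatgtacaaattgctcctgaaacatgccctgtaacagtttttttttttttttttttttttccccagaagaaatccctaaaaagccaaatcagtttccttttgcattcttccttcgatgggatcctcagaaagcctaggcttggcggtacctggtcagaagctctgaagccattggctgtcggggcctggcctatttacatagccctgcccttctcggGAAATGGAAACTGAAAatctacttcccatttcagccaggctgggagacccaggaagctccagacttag
Bst2, chr8:71537423-71537722, - strand: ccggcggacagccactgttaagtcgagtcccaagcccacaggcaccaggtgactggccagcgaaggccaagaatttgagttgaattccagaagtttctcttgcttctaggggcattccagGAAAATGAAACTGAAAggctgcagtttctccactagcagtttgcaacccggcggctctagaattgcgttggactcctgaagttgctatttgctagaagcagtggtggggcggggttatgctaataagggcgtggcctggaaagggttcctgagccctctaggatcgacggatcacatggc
Isg15, chr4:156200769-156201068, - strand: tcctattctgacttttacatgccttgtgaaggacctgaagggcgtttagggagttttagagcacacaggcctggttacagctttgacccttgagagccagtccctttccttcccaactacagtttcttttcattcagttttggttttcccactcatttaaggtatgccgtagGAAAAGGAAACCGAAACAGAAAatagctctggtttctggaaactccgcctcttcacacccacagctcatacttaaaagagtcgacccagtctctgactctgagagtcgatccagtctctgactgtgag
Ifit1 held 2 matches, at -104 and -85 from the start, and Ifit3 held 2, at -156 and -122. Neither of the windows of Ifit2 held one, though Ifit2 was the member of the 3 whose level was called. Oas1a and Oas1g held 2 each, at -20 and -14 and at -18 and -12, and shared a run of 73 identical bases. Bst2 held 2 and Isg15 held 3. A match describes letters and does not show a bound site, and no match says only that these letters are absent from this window. The motif was in 17 of 35 members (48.6%) and in 3.99% of 27025 genes with a promoter. It was in 6 of 11 members called in all 3 comparisons (54.5%), in 2 of 4 called in 1 or 2 (50%) and in 9 of 20 called in none (45%). The 12 members without a promoter sequence are missing from these counts. Among them Ifi27l2a, Ifi204, Zbp1, Mx1, Mx2, Usp18, Dhx58 and Parp9 were called in all 3 comparisons. The others were Parp14, Oas2, Rtp4 and Ifi27.

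Other RNA-directed effectors ranged between these. Oasl2, an oligoadenylate synthetase-like protein, was at 21.7, 4.91, 22.5, 8.08 and 8.69 RPKM in NonTg and at 12.5 to 38.5 (median 32.8), 9.09 to 48.5 (median 33.7) and 15.6 to 52.3 (median 27.8) in 5xFAD. NonTg libraries 4 and 24 overlapped all 3 groups, and the rises were 1.29 (SE 0.40, adjusted p = 0.0211), 1.17 (SE 0.37, adjusted p = 0.0301) and 1.31 (SE 0.39, adjusted p = 0.0222). All 3 calls of Oasl2 were lost without NonTg library 10, which left 1.02 (adjusted p = 0.0739) in Trem2+/+. Those of T96K/+ and T96K/T96K were also lost without NonTg library 28 or 30, the first without T96K/+ library 2 or 26, and the second without T96K/T96K library 3, with 0.90 to 1.10 and 1.05 to 1.22 left (adjusted p 0.0502 to 0.11 and 0.0503 to 0.0675). Male Oasl2 was 24.5, 20.7, 20.4, 25.8 and 20.97 in Trem2+/+, 15.2 to 21.3 (median 19.4) in T96K/+ and 14.9 to 23.5 (median 18.9) in T96K/T96K. Slfn2 and Slfn8 of the schlafen family rose by 1.03, 0.90 and 0.95 and by 0.46, 0.61 and 0.61; the Slfn8 call in Trem2+/+ was lost without NonTg library 4 (0.41, adjusted p = 0.0566). Eif2ak2, the kinase PKR that halts translation on double-stranded RNA, rose by 0.59, 0.65 and 0.76, and Oas3 by 0.86, 1.20 and 1.16. The Oas3 call in Trem2+/+ was lost without any of 7 single libraries (0.72 to 0.86, adjusted p 0.0584 to 0.0928). Isg20, an exonuclease, was called only in T96K/T96K at 0.75 (SE 0.25, adjusted p = 0.0431), lost without any of 8 single libraries (0.55 to 0.78, adjusted p 0.0515 to 0.123), and stood at 0.58 and 0.64 in the other groups. With a depth covariate Isg20 was also called in T96K/+. Those not called in any comparison were Oasl1 (0.53 to 0.68), Oas2 (0.04 to 0.33), Slfn5 (-0.02 to 0.17), Cmpk2, a mitochondrial nucleotide kinase (-0.03 to 0.11), and Rsad2, the antiviral enzyme viperin (-0.16 to 0.21), beside Ifit1 and Ifit3. Cmpk2, like Ifit1, was called higher with marker covariates in Trem2+/+ and T96K/+.

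**Figure D2:**
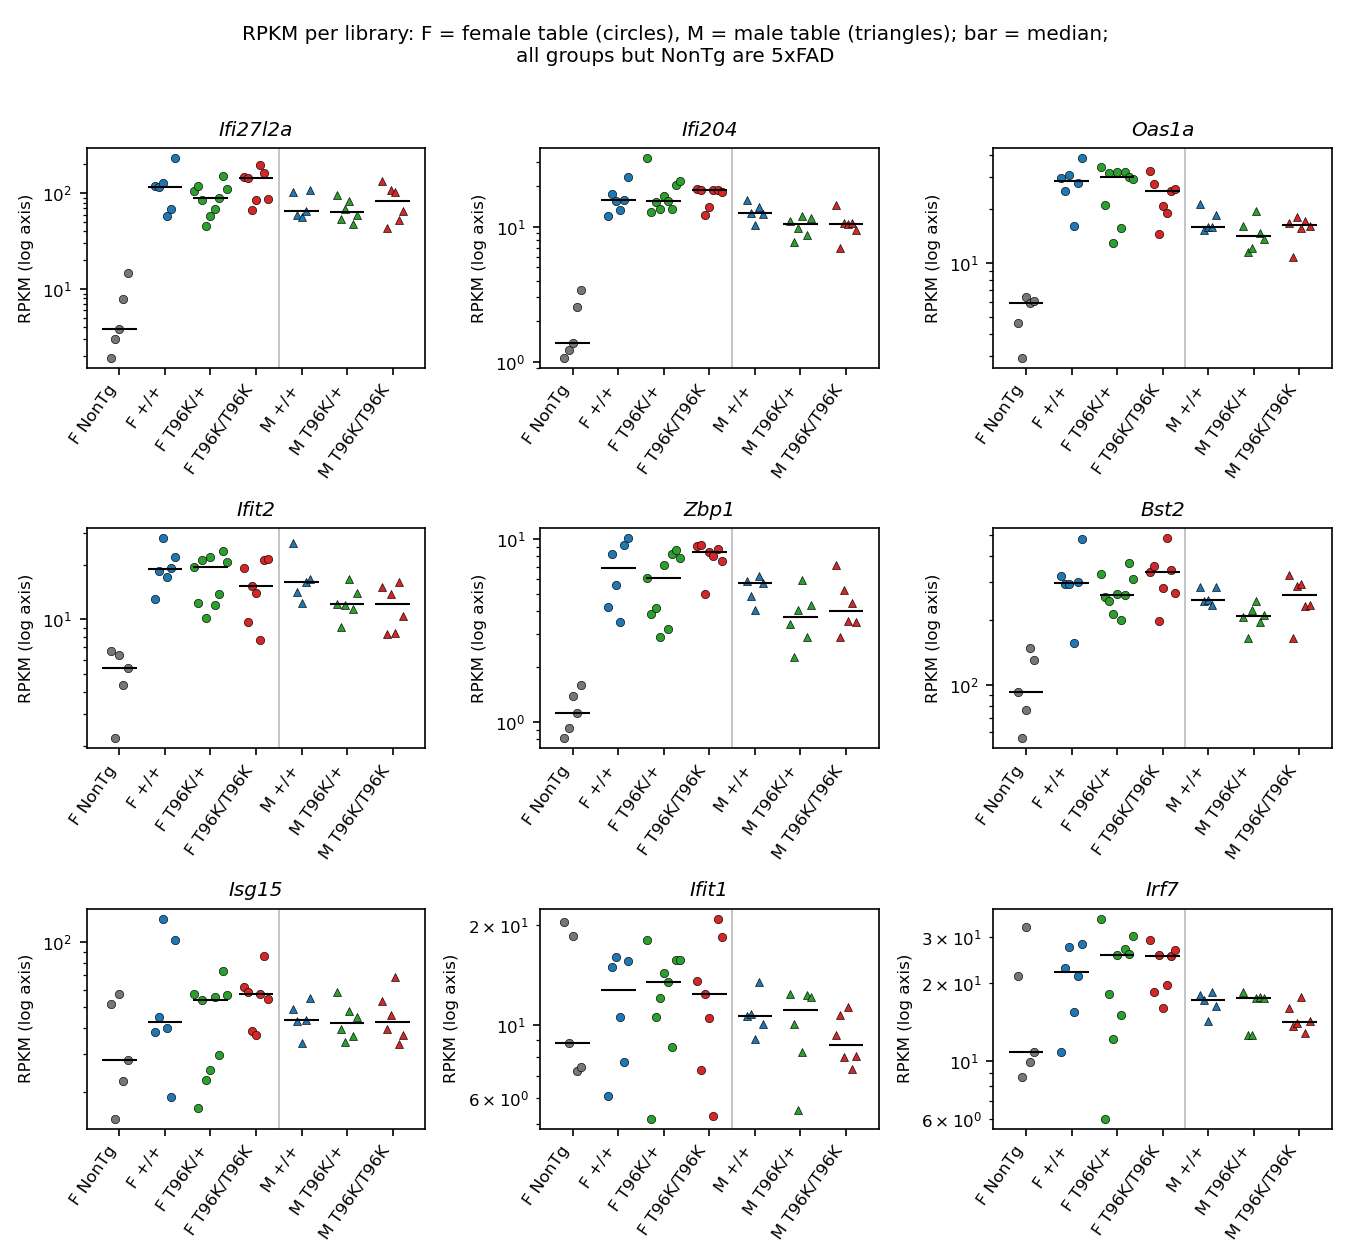
RPKM of 9 members in each library on log axes, with circles for the female table, triangles for the male table and bars at group medians; all groups but NonTg are 5xFAD. NonTg lies below every female 5xFAD library for Ifi27l2a, Ifi204, Oas1a, Zbp1 and Bst2, below all those of Ifit2, and overlaps female 5xFAD libraries for Isg15, Ifit1 and Irf7.

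Among genes that act on membranes and virions, Bst2, the tetherin that holds budding particles to the cell, stood at 92.2, 56.3, 76.6, 148 and 131 RPKM in NonTg. It reached 157 to 478 (median 298) in Trem2+/+, 200.1 to 370.2 (median 263) in T96K/+ and 197 to 481 (median 336) in T96K/T96K. No 5xFAD library was as low as the highest NonTg library, number 28, and the differences were 1.61 (SE 0.25, adjusted p = 4.85e-05), 1.49 (SE 0.23, adjusted p = 5.60e-05) and 1.71 (SE 0.25, adjusted p = 1.95e-05). Male Bst2 was 287, 245, 249.5, 236 and 286 in Trem2+/+, 165 to 246 (median 209) in T96K/+ and 166 to 323 (median 262) in T96K/T96K. Mx1, a dynamin-like GTPase that traps viral nucleoprotein, stood at 0.276, 1.003, 0.292, 0.508 and 0.612 RPKM in NonTg and at 1.21 to 4.51 (median 3.78), 1.06 to 4.97 (median 3.33) and 1.57 to 4.61 (median 2.404) in 5xFAD, with no overlap. Its rises were 1.48 (SE 0.25, adjusted p = 1.38e-04), 1.42 (SE 0.23, adjusted p = 1.06e-04) and 1.35 (SE 0.25, adjusted p = 3.38e-04), and those of the paralogue Mx2 were 0.65, 0.71 and 0.84; the Mx2 call in Trem2+/+ (adjusted p 0.0467) was lost on leaving out any of 17 single libraries, and that in T96K/+ on leaving out NonTg library 4, 24 or 30 (0.60 to 0.66, adjusted p 0.0753 to 0.0832). Ifitm3, which blocks fusion of virus with the cell, had the highest median RPKM of the members in each group and stood at 738, 518, 884, 267 and 299 RPKM in NonTg. It covered 261 to 1537 (median 415), 246 to 1025 (median 454) and 429 to 1152 (median 527) in the female 5xFAD groups. NonTg lay inside the ranges of Trem2+/+ and T96K/+, and the differences of -0.01, -0.09 and 0.33 (SE 0.41, 0.38 and 0.40) were not called. With shallow libraries alone Ifitm3 was called lower in Trem2+/+ and T96K/+ at -0.86 and -0.87 (adjusted p 0.0342 and 0.0308), while without NonTg libraries 4, 10 and 24 it stood at 0.77 and 0.69, not called. Male Ifitm3 was 508, 562, 426, 567 and 689 in Trem2+/+, 399.9 to 655 (median 525) in T96K/+ and 410.4 to 877 (median 521) in T96K/T96K. Ifitm2, a near copy of Ifitm3, and Samd9l, a translation inhibitor, lay between -0.29 and 0.25 and were not called; Ifitm2 was called lower with shallow libraries alone in all 3 comparisons. Samd9l was called higher with marker covariates in both T96K groups.

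In the feedback and ISG15 system, Usp18, the protease that removes ISG15 and restrains the receptor, stood at 20.8, 10.9, 25.3, 15.03 and 15.2 RPKM in NonTg. It covered 16.7 to 61.5 (median 40.3), 17.99 to 68.4 (median 52.7) and 21.7 to 61.98 (median 44.4) in the female 5xFAD groups. Each 5xFAD range overlapped NonTg through library 24, and those of Trem2+/+ and T96K/+ also through library 4. Usp18 was called higher by 1.16 (SE 0.34, adjusted p = 0.0142), 1.41 (SE 0.31, adjusted p = 0.00234) and 1.17 (SE 0.33, adjusted p = 0.0149). Male Usp18 was 39.01, 28.2, 23.2, 29.8 and 31.5 in Trem2+/+, 22.8 to 35.3 (median 27.2) in T96K/+ and 21.9 to 33.2 (median 26.4) in T96K/T96K. Isg15 itself, the ubiquitin-like modifier, stood at 51.5, 15.1, 57.1, 22.6 and 28.1 RPKM in NonTg, with libraries 4 and 24 highest. It covered 18.9 to 129 (median 42.3), 16.9 to 73.4 (median 53.9) and 37.01 to 86.3 (median 57.4) in 5xFAD. All groups overlapped, and the differences were not called at 0.70 (SE 0.43, adjusted p = 0.254), 0.32 (SE 0.39, adjusted p = 0.641) and 0.79 (SE 0.41, adjusted p = 0.201). Male Isg15 was 48.95, 42.9, 33.9, 43.3 and 54.8 in Trem2+/+, 34.1 to 58.6 (median 42.2) in T96K/+ and 33.6 to 68.8 (median 42.5) in T96K/T96K. Herc6, the ligase for ISG15 in mice, rose by 0.64, 0.73 and 0.57 from NonTg values of 5.37, 5.55, 4.92, 4.695 and 5.41 RPKM. Parp9, an ADP-ribosyltransferase, rose by 0.40, 0.46 and 0.37, while its partner Dtx3l, a ubiquitin ligase, was not called at 0.07, 0.17 and 0.14. The Parp9 call in T96K/T96K (adjusted p 0.0495) was lost on leaving out any of 22 single libraries (0.24 to 0.40, adjusted p 0.0502 to 0.151), and that of Trem2+/+ without NonTg library 10 or 30 or Trem2+/+ library 13 or 19 (0.27 to 0.39, adjusted p 0.0521 to 0.111). Parp14 was called only in T96K/T96K at 0.64 (SE 0.20, adjusted p = 0.0274), lost without any of 6 single libraries (0.53 to 0.65, adjusted p 0.0524 to 0.0917), and Rtp4, a chaperone of membrane receptors, was not called at 0.74, 0.87 and 0.90. Rtp4 was called higher with marker covariates in T96K/T96K.

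The widest rise was that of Ifi27l2a, a small membrane protein of mitochondria and the nuclear envelope, at chr12:104680377-104681890 of mm9 on the - strand. It stood at 1.91, 3.03, 3.88, 7.84 and 14.7 RPKM in NonTg, so libraries 28 and 30 were the highest of the 5. It reached 57.6 to 233 (median 118) in Trem2+/+, 45.5 to 151 (median 88.95) in T96K/+ and 67.1 to 199 (median 144) in T96K/T96K. The groups did not overlap, and the differences were 4.18 (SE 0.39, adjusted p = 4.06e-08), 3.87 (SE 0.36, adjusted p = 2.78e-08) and 4.32 (SE 0.38, adjusted p = 1.27e-08). With NonTg libraries 4, 10 and 24 left out they were 3.22, 2.90 and 3.36. Male Ifi27l2a was 103, 59.6, 56.1, 65.1 and 107 in Trem2+/+, 47.5 to 95.3 (median 63.98) in T96K/+ and 43.1 to 134 (median 83.8) in T96K/T96K. Xaf1, a proapoptotic gene, was called only in T96K/T96K at 0.68 (SE 0.22, adjusted p = 0.0395), lost without any of 7 single libraries (0.59 to 0.71, adjusted p 0.0532 to 0.0961). With a depth covariate Xaf1 was called higher in each comparison. In T96K/+ it was also called with voom weights and with a pseudocount of 0.1. Ifi35 and Ifi44 were not called at 0.39, 0.30 and 0.33 and at 0.59, 0.51 and 0.45. Ifi44 was called higher with marker covariates in each comparison, and Ifi35 with a depth covariate in Trem2+/+.

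Counting only groups that did not overlap, 12 members lay wholly above NonTg in Trem2+/+, where 5.83% of all genes did, 12 in T96K/+ (3.9%) and 13 in T96K/T96K (5.81%). None lay wholly below, where 4.17%, 1.39% and 1.85% of all genes did. Mx1, Dhx58, Zbp1, Herc6, Ifit2, Bst2, Oas1a, Oas1g, Ifi204 and Ifi27l2a did so in all 3.

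The NonTg libraries differed among themselves. Libraries 4 and 24 were the highest pair of the 5 for 25 of 46 members (54.3%), against 18.5% of all genes tested, and among the 25 were Isg15, Ifit1, Ifit3, Irf7, Oasl2, Ifitm3, Rsad2 and Cmpk2. Libraries 28 and 30, the deep ones, were the highest pair for 3 members (6.52%), against 17.5% of all genes, and these were Bst2, Ifi204 and Ifi27l2a. The pairs were chosen after the values were seen and no test was made. The summed microglia markers were 4167, 5346 and 3313 RPKM in libraries 4, 10 and 24 and 10410 and 9253 RPKM in 28 and 30, and their part in the member values was not tested. Without libraries 28 and 30 the members called higher numbered 12, 18 and 16, with Ifi203 called lower in T96K/+. Without libraries 4, 10 and 24 they numbered 8, 8 and 6, and with shallow libraries alone 12, 16 and 14. With the endothelial and microglia marker scores as covariates, a setting chosen after seeing the data like the omissions just named, 16, 19 and 25 members were called higher, of which 13, 14 and 21 were called without them. Called only with these covariates were Ifit1, Cmpk2 and Ifi44 in Trem2+/+. In T96K/+ they were Ifit1, Cmpk2, Ifi44, Ifih1 and Samd9l, and in T96K/T96K Ifi44, Ifit3, Rtp4 and Samd9l. Leaving out each library in turn gave 16 to 21, 18 to 22 and 18 to 23 members called higher. Held in each of those fits and in each alternative setting were 8 members in Trem2+/+ (Herc6, Ifi204, Ifi27l2a, Ifit2, Mx1, Oas1a, Oas1g and Zbp1), 8 in T96K/+ (Slfn8 in place of Oas1g) and 6 in T96K/T96K (Ifi204, Ifi27l2a, Ifit2, Oas1a, Slfn8 and Zbp1).

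**Figure D3:**
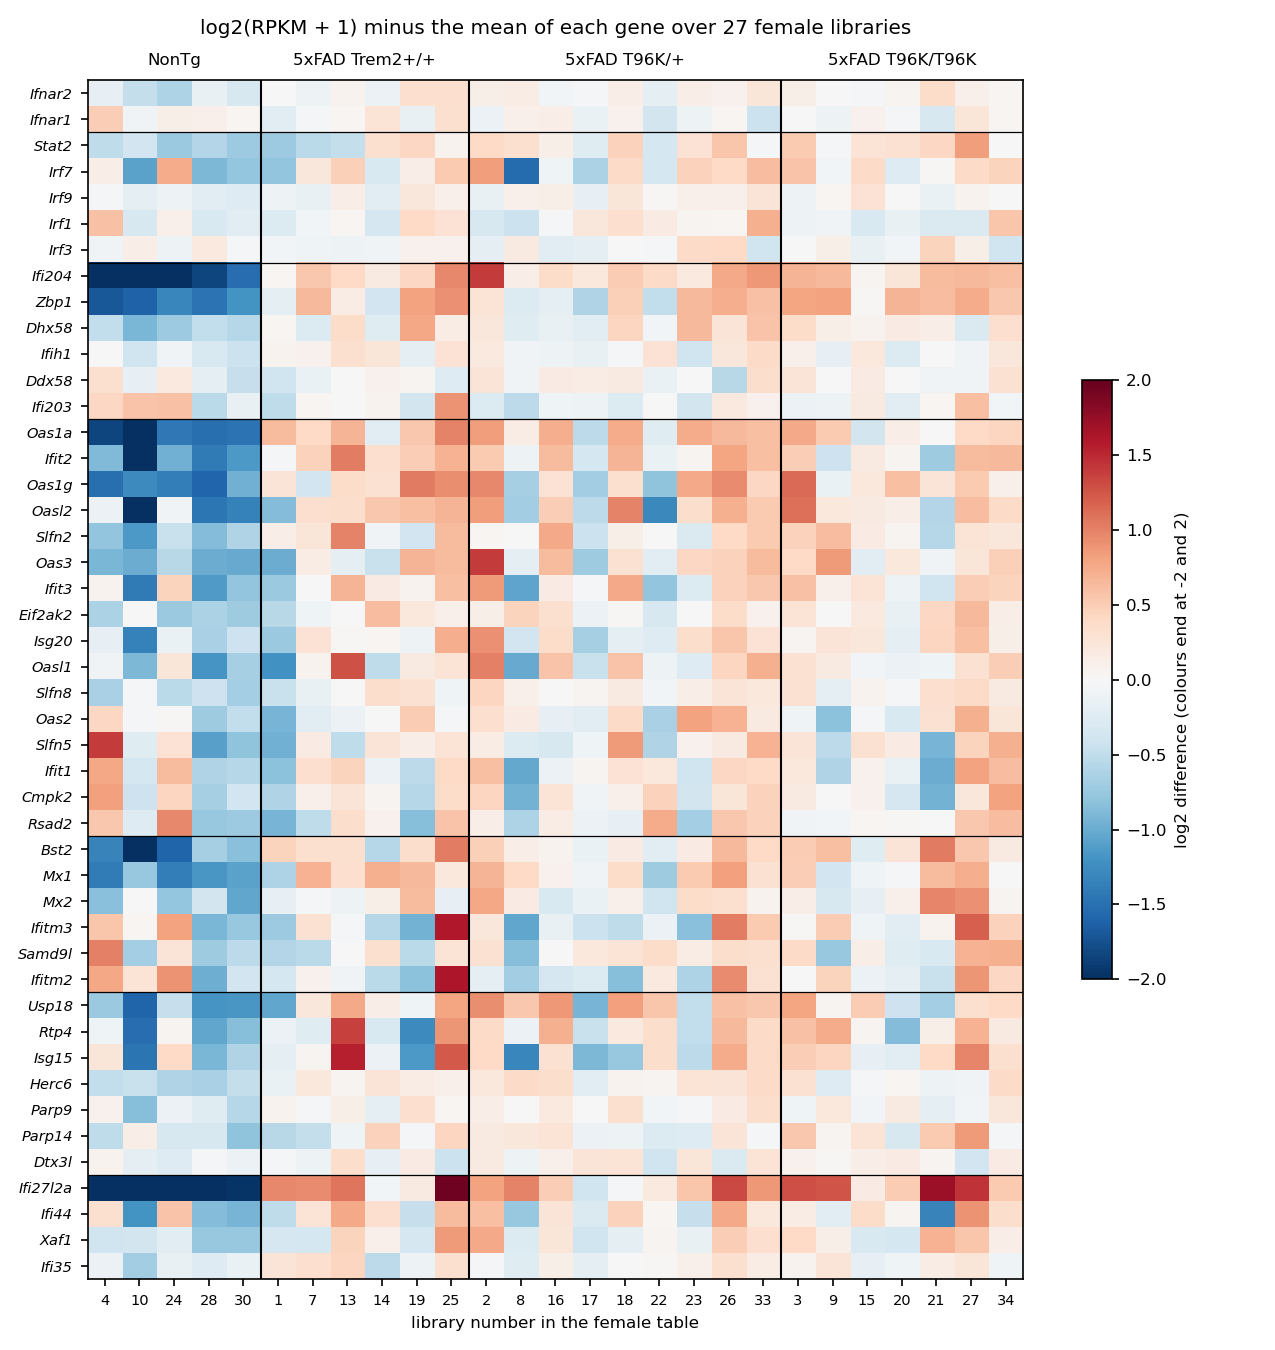
log2(RPKM + 1) of 46 members in 27 female libraries, minus the mean of each gene over those libraries; rows are grouped by role, columns by genotype, and colours end at -2 and 2. The 5 NonTg columns are blue throughout for Ifi204, Zbp1, Oas1a, Oas1g, Bst2, Mx1 and Ifi27l2a, while libraries 4 and 24 are red or pale for Ifit1, Ifit3, Irf7, Isg15 and Ifitm3.

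Infiltrating cells were looked at through their markers. The summed RPKM of 7 monocyte markers was 5.76 to 107 in NonTg, 38.3 to 192 in Trem2+/+, 6.44 to 113 in T96K/+ and 28 to 225 in T96K/T96K, and that of 8 neutrophil markers 99 to 2770, 420 to 6130, 33.3 to 2020 and 1080 to 5420. All of these ranges overlapped. Of 6 tested monocyte markers 1, Ms4a4c, was called higher in Trem2+/+ at 1.66 (adjusted p = 0.00395) and in T96K/T96K at 1.27 (adjusted p = 0.0271), and the median difference over the 6 was 1.496, -0.47 and 1.24. None of 8 neutrophil markers was called, and their median difference was 1.10, 0.06 and 1.95. Of the endothelial markers 9, 7 and 1 of 9 were called lower than in NonTg, with a median difference of -1.355, -0.99 and -0.65. Of 12 microglia markers 2, 1 and 1 were called higher. Their median difference was 0.55, 0.61 and 0.37, beside 0.49, 0.55 and 0.62 over the members. The part of monocytes and neutrophils in the interferon values was not tested.

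Around the members, the rest of the pathway was followed with further gene lists, which were drawn up with earlier results of these data known. The ligands were near the floor: Ifnb1 reached 0.904 RPKM in NonTg, 1.60 in female Trem2+/+, 1.17 in T96K/+ and 0.524 in T96K/T96K, with a lowest value of 0 in each, and Ifna1, Ifna4 and Ifna5 were listed at 0 in all libraries. Of 13 tested genes of receptor signalling 3, 4 and 2 were called higher and 1 each time lower. Of all genes 13.5%, 10.3% and 10.3% were called higher in Trem2+/+, T96K/+ and T96K/T96K, and 10%, 7.07% and 5.05% lower. Irf8, a factor of the microglial lineage, rose by 0.80, 0.75 and 0.78. Socs1, a brake on the receptor kinases, fell by 0.63, 0.51 and 0.47. Of 21 tested genes of nucleic acid sensing upstream of interferon 8, 5 and 5 rose and none was called lower, among them Tlr7, the endosomal sensor of single-stranded RNA (1.08, 1.23 and 0.97), and Mnda, a PYHIN gene (1.68, 1.21 and 1.34). Of 42 further interferon-stimulated genes 12, 11 and 11 rose and none was called lower. These included Lgals3bp, a secreted glycoprotein (2.24, 2.34 and 2.40), Cd274, which encodes PD-L1 (1.57, 1.51 and 1.58), and Phf11 (1.76, 1.59 and 2.10). Median differences of the 3 lists were 0.00, 0.19 and 0.28 in Trem2+/+, in the order given here. They were -0.0037, 0.22 and 0.27 in T96K/+ and -0.023, 0.18 and 0.27 in T96K/T96K.

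The second question was whether T96K changed these genes within 5xFAD. No member was called in either sex, with limma on log2(RPKM + 1) and with voom weights on recovered reads alike. In the first of these fits no other gene was called either (0% of all genes in each comparison). In females the median member difference of T96K/+ from Trem2+/+ was 0.04, with 26 of 46 above 0, and that of T96K/T96K was 0.08, with 33 above 0. Of all genes 49.6% and 48.7% were above 0, with medians of -0.0015 and -0.0065. At an unadjusted p under 0.05 stood 0 members in T96K/+, where 3.58% of all genes did, and 1 in T96K/T96K (3.73%). That member was Stat2, higher by 0.49 (95% interval 0.11 to 0.86, unadjusted p = 0.0129, adjusted p = 0.974); the next smallest p-values belonged to Parp14 at 0.31 and Ifit2 at -0.37. In T96K/+ Stat2 was higher by 0.32 (unadjusted p = 0.073, adjusted p = 0.994), followed by Oas3 at 0.33 and Slfn8 at 0.15. Between T96K/T96K and T96K/+ the member with the smallest p was Zbp1 at 0.47 (unadjusted p = 0.0328), then Herc6 at -0.16 and Parp14 at 0.26. On RPKM + 1, the 95% intervals lay within 2-fold in either direction for 44 of 46 members in T96K/+ and 45 in T96K/T96K. For members with low values such an interval can hold changes of RPKM wider than 2-fold. The exceptions were Isg15 and Ifi27l2a in T96K/+ and Ifitm3 in T96K/T96K.

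In males most members were lower with T96K, without passing the adjustment. Of 44 tested, 37 were below 0 in T96K/+ (median -0.14, all genes -0.02) and 35 in T96K/T96K (median -0.13, all genes -0.00388). Of all genes 46.7% and 49.04% were above 0. At an unadjusted p under 0.05 stood 14 members in T96K/+, where 12.3% of all genes did, and 9 in T96K/T96K, where 8.62% did. Mx1 was at 2.49, 2.41, 2.48, 3.43 and 2.496 RPKM in Trem2+/+, 0.718 to 1.901 (median 0.934) in T96K/+ and 0.587 to 2.14 (median 1.695) in T96K/T96K. Every T96K library was below every Trem2+/+ library. Its differences were -0.84 (SE 0.17, unadjusted p = 9.99e-05, adjusted p = 0.159) and -0.55 (SE 0.17, unadjusted p = 0.004, adjusted p = 0.481). Slfn8 was at 14.2, 12.97, 14.4, 16.8 and 13.9 RPKM in Trem2+/+, 9.84 to 12.4 (median 11.8) in T96K/+ and 6.34 to 12.6 (median 12.2) in T96K/T96K, again with no overlap, and differed by -0.33 and -0.39 (adjusted p 0.355 and 0.506). Members wholly below Trem2+/+ numbered 3 in T96K/+ (Mx1, Slfn8 and Ifnar2; 1.43% of all genes) and 2 in T96K/T96K (Mx1 and Slfn8; 0.563%). Stat2 was at 17.3, 19.3, 17.4, 20.2 and 15.3 RPKM in Trem2+/+, 10.7 to 15.6 (median 14.2) in T96K/+ and 10.9 to 17.6 (median 15.3) in T96K/T96K, and differed by -0.34 and -0.26. Dhx58 differed by -0.39 in T96K/+ and Dtx3l by -0.35 in T96K/T96K. Between the T96K groups Cmpk2 was lower in T96K/T96K at -0.48 and Dhx58 and Bst2 were at 0.25 and 0.28, none called. Summed endothelial markers had medians of 815, 2410 and 1270 RPKM in male Trem2+/+, T96K/+ and T96K/T96K, and summed monocyte markers of 91.9, 52.9 and 70.1. The median difference from Trem2+/+ over 12 microglia markers was -0.26 in T96K/+ and -0.18 in T96K/T96K, with none called. The part of these markers in the male values was not tested.

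The T96K effects of the sexes were compared through the difference of their differences, since each table had been scaled on its own. No member and no other gene was called (0% for both comparisons). The female effect minus the male effect had a median of 0.19 over 44 members in T96K/+ and 0.19 in T96K/T96K, with 34 and 39 members above 0. Over all genes the medians were 0.0021 and -0.0027, with 50.4% and 49.5% above 0. At an unadjusted p under 0.05 stood 4 members each time, where 4.71% and 5.57% of all genes did. Stat2 had the smallest p in both, at 0.66 (SE 0.23, adjusted p = 0.928) and 0.75 (SE 0.23, adjusted p = 0.865), followed by Slfn8 at 0.48 and 0.54. Then came Mx1 at 0.77 in T96K/+ and Dtx3l at 0.42 in T96K/T96K.

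**Figure D4:**
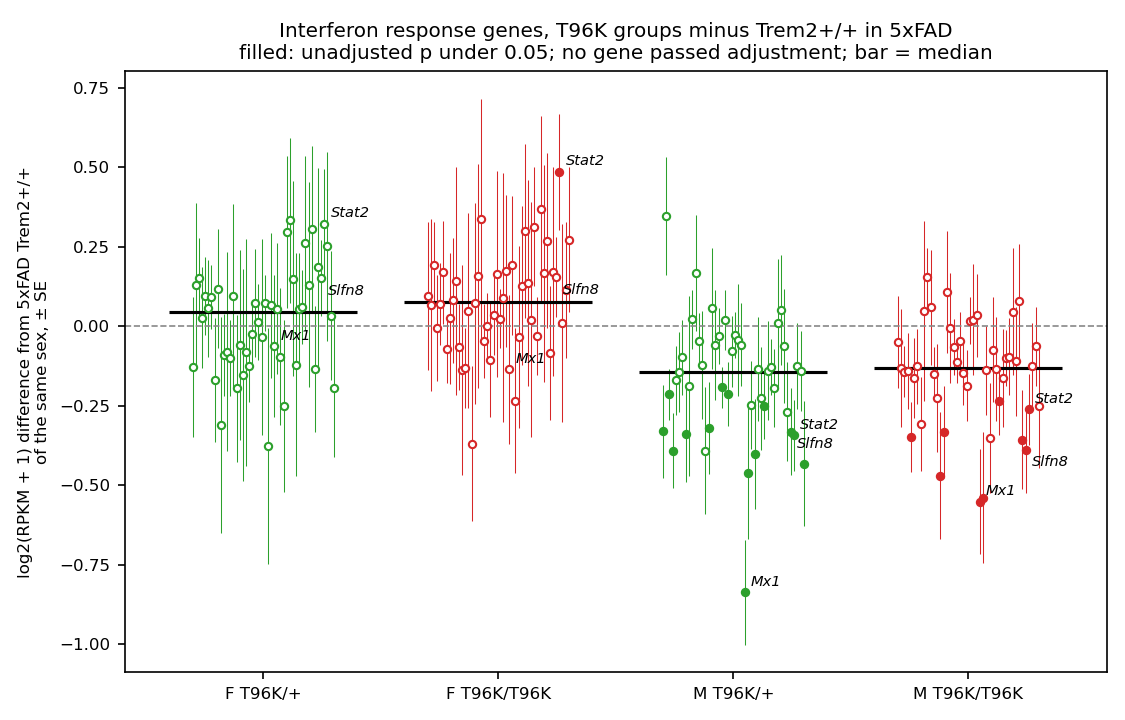
Difference of each member between a T96K group and Trem2+/+ within 5xFAD of the same sex, log2(RPKM + 1) with SE; 46 members in females and 44 in males, filled at an unadjusted p under 0.05, bars at medians. Female medians lie at 0.04 and 0.08 and male medians at -0.14 and -0.13, with male Mx1 in T96K/+ lowest at -0.84 and female Stat2 in T96K/T96K highest among the filled points at 0.49; no point passed the adjustment.

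Spread within a group was narrower in males than in females. The median coefficient of variation over members was 37% in NonTg. Among 5xFAD females it was 33.2% with Trem2+/+, 30.1% with T96K/+ and 25.7% with T96K/T96K, and among males 15.6%, 16.3% and 21.1%. The libraries behind these values were not sequenced with a strand mark, per the kits named in the labels, so antisense transcription over a member would be counted with it, and near copies within the Oas, Ifit, Slfn, Mx, Ifitm and PYHIN families may share reads.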

How the data were processed

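Poly(A) RNA of microglia from 44 mice was sequenced in 27 female and 17 male libraries. Per the labels' protocols cDNA was made with a SMART-Seq low-input kit, and per the series design text libraries were prepared with Nextera XT, run on a NextSeq 2000 and aligned to mm9 with STAR. Per the submitters' processing notes HTSeq and edgeR were also used; no versions are given in the sources used here. The deposited values are the authors' RPKM per gene, scaled to library size, in 1 table for each sex, with 46 of the 47 member names found in both. RPKM times gene length was divided by the smallest nonzero product of each library, which was taken as 1 read. The results were whole numbers within a tolerance of 0.01 reads for 100% of values. These recovered reads served for depth and for 1 alternative. The library size behind the RPKM was 1.03 to 1.26 times the recovered reads in NonTg and 0.80 to 1.09 times in female 5xFAD. A larger factor lowers RPKM. The voom weights kept this scaling, while quantile normalization replaced it. The part of these factors in single differences from NonTg was not tested further.

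A gene entered a fit if 5 or more libraries of its table reached 1 RPKM (14591 in females, 13845 in males, 13636 in both). On log2(RPKM + 1), that is with pseudocount 1, group means were fitted by limma 3.58.1 (R 4.3.3, trend and robust options), and two-sided p-values were adjusted by Benjamini-Hochberg over all genes tested. Adjusted p-values and 95% intervals come from these fits unless another setting or an omitted library is named beside them. The limma procedure was tested on simulated data. Tests stayed within a table, and across the sexes T96K effects alone were set against each other. Groups come from the library titles.

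The members, gene lists and marker lists were chosen with earlier results of these data known. Given in every library (as lowest, median and highest in groups over 5) were Ifi27l2a, Isg15, Ifit3, Irf7, Oasl2, Ifi204, Bst2, Ifitm3, Usp18, Stat2, Ifnar1 and Ddx58. Added to them were the 6 called members with the largest rises in each comparison, or the 3 smallest p-values where fewer than 3 were called; other members named with values were picked after these were seen. Alternatives were pseudocounts of 0.1 and 5, no filter, quantile normalization, voom weights, a depth covariate, shallow libraries alone and omission of each library, and, after seeing the data, marker covariates and omission of NonTg libraries in sets. Marker lists of T or NK cells, B cells, border macrophages, plasmacytoid dendritic cells, neurons, astrocytes and oligodendrocytes gave no value used here. The values of 1 listed gene of receptor signalling are not reported here.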

Additional observations from a re-analysis of the deposited data

Results flagged for a closer look

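Oasl2 in the female 5xFAD Trem2+/+ group stood apart in 1 library: library 1 was at 12.54 RPKM, while the other 5 libraries of the group lay between 30.3 and 38.5 RPKM. Its gap to the nearest library, over the range of the group, passed the critical value for 6 samples. Of 84 groups of 12 genes examined this way, it was the 1 that did so, and chance alone picks about 1 in 20. The cause was not tested.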

How the results depend on the processing

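With NonTg libraries 28 and 30 left out, a setting chosen after seeing the data, 12 members were called in Trem2+/+ against NonTg in place of 20. With NonTg libraries 4, 10 and 24 left out, also chosen after seeing the data, 8, 8 and 6 were called in Trem2+/+, T96K/+ and T96K/T96K in place of 20, 20 and 23; this leaves NonTg with 2 libraries, and any further cause was not tested. With shallow libraries alone the members called higher fell to 12, 16 and 14, and 3, 3 and 2 were called lower (15, 19 and 16 in all; Ifi203 and Ifitm2 in each, Ifitm3 in Trem2+/+ and T96K/+). The settings that follow gave counts within 1.5 times. Pseudocounts of 0.1 and 5 gave 20, 21 and 23 and 18, 19 and 21, no filter 17, 19 and 20, quantile normalization 17, 20 and 21 (the 20 being 19 higher, without Ifnar2, and Ifnar1 lower at -0.38, adjusted p = 0.0336), voom weights 20, 21 and 22, and a depth covariate 22, 22 and 23. Leaving out each library in turn gave 16 to 21, 18 to 22 and 18 to 23. The T96K comparisons and their sex differences stayed at 0 members called in every setting and with every library left out. Of the 63 calls against NonTg, 41 were lost without NonTg libraries 4, 10 and 24, 21 with shallow libraries alone, 17 without NonTg libraries 28 and 30, 15 with marker covariates, 7 with no filter, 6 under quantile normalization, 5 at pseudocount 5, 1 with voom weights, 1 without the library labelled T96K/+ 22, and 0 at pseudocount 0.1 or with a depth covariate. No called member changed direction. Members that were not called did. Ifitm3 (-0.01, -0.09 and 0.33 in Trem2+/+, T96K/+ and T96K/T96K) turned to 0.13 and 0.018 in the first pair with a depth covariate, to 0.39 and 0.37 with marker covariates and to 0.77 and 0.69 without NonTg libraries 4, 10 and 24. In T96K/T96K it turned to -0.36 under quantile normalization, -0.41 with shallow libraries alone and -0.19 without NonTg libraries 28 and 30. Leaving out each library moved it from -0.34 to 0.21 in Trem2+/+ and from -0.30 to 0.13 in T96K/+. Ddx58 (-0.05, 0.10 and 0.14) turned in Trem2+/+ to 0.26 with marker covariates and 0.21 without NonTg libraries 4, 10 and 24. It turned in T96K/+ and T96K/T96K to -0.032 and -0.044 with shallow libraries alone and to -0.073 and -0.032 without NonTg libraries 28 and 30. Leaving out each library moved Ddx58 from -0.15 to 0.042 in Trem2+/+ and from -0.00055 to 0.19 in T96K/+. Ifnar1 in Trem2+/+ turned from -0.10 to 0.057 with marker covariates, and with shallow libraries alone Isg15 and Irf7 in T96K/+ turned from 0.32 and 0.39 to -0.072 and -0.063. The cause of these turns was not tested. No paired analysis was possible because within a table no library number occurs in 2 groups.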
